A study of Sus scrofa with 15 samples.

Results

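The genes described here are the ligand TGFB1, the receptor genes TGFBR1, TGFBR2 and TGFBR3, the SMAD genes SMAD2, SMAD3, SMAD4 and SMAD7, and the repressors SKI and SKIL, which were chosen by name as the core of the transforming growth factor beta (TGF-β) pathway. They are 10 of the 29886 genes counted in porcine NK cells, and all 10 were found in the count table under these symbols. RNA was sequenced from NK cell populations sorted by FACS from 5 pigs that were 6 months old: CD8αhigh NK cells from blood (conventional or cNK cells), CD8αhigh NK cells from liver and CD8αdim NK cells from liver (liver-resident or lrNK cells). Each pig gave 1 library of each population, so that there were 15 libraries in 3 groups of 5, and numbers of pigs below are the donor numbers of the labels. The liver cells were obtained by flushing the organ, and both liver populations were separated by their CD8α level, which is therefore no finding. CD8αdim cells were only taken from liver, so organ and CD8α level cannot be fully told apart. The liver CD8αhigh cells share the organ with lrNK cells and were sorted for the same CD8α level as blood cells.

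TGF-β is secreted in a latent form and, once released, binds the type II receptor encoded by TGFBR2, which recruits and phosphorylates the type I receptor encoded by TGFBR1. TGFBR3 (betaglycan) is a co-receptor that presents ligand. The active type I receptor phosphorylates the proteins encoded by SMAD2 and SMAD3, which join the SMAD4 protein, enter the nucleus and act on target genes together with other factors. SMAD7 competes at the receptor and marks it for degradation, whereas SKI and SnoN, the product of SKIL, bind SMAD complexes and hold back transcription. SMAD7 and SKIL are themselves known target genes of the pathway in many cells. In NK cells TGF-β is known to dampen effector functions and to favour features of tissue residence.

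The libraries held between 2003499 and 5680221 counts on genes. Levels are given as CPM, counts scaled to the TMM-adjusted library size, and differences as log2 fold changes with standard error (SE) from edgeR's quasi-likelihood test over the 10939 genes that passed its filter on low counts, with a gene called where the Benjamini-Hochberg adjusted p was under 0.05. Of the 10 genes, 9 passed that filter and TGFBR3 did not. NK cell markers were detected in every population, 12 of 12, but 7 of the 12 were called between lrNK and blood cells, 5 higher and 2 lower (18.2% of all genes tested were called). The 2 lower ones include CD8A (log2 fold change -3.43), which encodes the protein used for sorting, so that its call is no finding. Among the other called markers, named after their values were seen, the receptor genes NCR1 and KLRB1 were higher (log2 fold changes 2.47 and 2.34, edgeR adjusted p = 0.00184 and 3.48e-04) and the granzyme gene GZMB was lower (-2.63, edgeR adjusted p = 5.59e-04). Each of the hepatocyte, stellate cell, endothelial and monocyte or macrophage marker lists summed to at most 25.6 CPM in any library. APOA1, DCN, PDGFRB, CSF1R and CD163 were at 0 in all libraries, whereas ALB reached 24 and COL1A1 33 reads in lrNK libraries. LYZ, the only tested monocyte or macrophage marker, reached 91 reads there. LYZ was called higher in lrNK than in liver CD8αhigh cells (log2 fold change 4.57, edgeR adjusted p = 0.0272), though not in a fit blocked by pig (adjusted p = 0.0512). Against blood cells LYZ was not called (log2 fold change 1.88, edgeR adjusted p = 0.305). The lrNK libraries stood apart in their B cell markers, which summed to 311 to 873 CPM against 55.6 to 145 CPM in blood and 18.8 to 74.9 CPM in liver CD8αhigh cells, with CD79A at 0 throughout. Of 7 tested markers, 6 were called higher in lrNK cells than in blood cells (8.62% of all genes tested) and 6 than in liver CD8αhigh cells (6.96%). T cell markers summed to 110 to 593 CPM in lrNK cells, 637 to 1203 CPM in blood cells and 714 to 1076 CPM in liver CD8αhigh cells, with CD4, CD5 and CD28 at 0. Nearly all of this was CD3G (means of 289, 865 and 825 CPM). It was the only called marker of the 3 tested, lower in lrNK than in blood cells (9.6% of all genes tested were lower). CD3D instead had a log2 fold change of 1.15 between lrNK and blood cells (edgeR adjusted p = 0.188). The third tested marker, CD3E, was lower in lrNK than in blood cells in 5 of 5 pigs without being called (log2 fold change -2.21, edgeR adjusted p = 0.301), and against liver CD8αhigh cells it was called in a fit blocked by pig (-2.77, adjusted p = 0.0418). Platelet markers summed to 76.0 to 178 CPM over all libraries. Nearly all of this was GP9 (means of 90.5 CPM in blood, 96.4 CPM in liver CD8αhigh and 118 CPM in lrNK cells). GP1BB was at 0, and PPBP, ITGA2B and TUBB1 had means of at most 3.06 CPM in any population. Erythroid markers reached 316 CPM in the blood library of pig 4 and at most 58.4 CPM in any liver library. Among 9 genes known to respond to cell isolation, 6 were tested and 2, HSPA8 and EGR1, were higher in lrNK than in blood cells (8.62% of all genes tested were higher), HSPA8 also in liver CD8αhigh than in blood cells. HSPA8 made up most of their summed level, with means of 636 CPM in blood cells, 1413 CPM in liver CD8αhigh cells and 1380 CPM in lrNK cells, while JUN, FOSB, DUSP1 and DNAJB1 were not called in either comparison with blood. The part of these other signals in the results below was not tested. Values without single lrNK libraries are given below, but each lrNK library had more B cell marker signal than any blood library, so that these do not remove it.

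In CD8αdim lrNK cells compared with blood cNK cells, TGFBR1 and SKIL were higher, whereas SMAD3, TGFB1, SMAD4 and SMAD7 were lower. These are 6 called genes of the 9 tested, 2 higher and 4 lower, against 18.2% called over all genes tested (8.62% higher and 9.6% lower). The number was 3 (2 higher and 1 lower) without pig 4, without pig 5 or without the lrNK library of pig 4. Over all genes the number called fell from 1993 to 1511, 1472 and 1869 in these settings. In 5 of the 9 genes the CPM of the 5 lrNK libraries did not overlap with those of the 5 blood libraries, against 13.5% of all genes tested. Between lrNK cells and liver CD8αhigh cells 4 of 9 genes were called, against 14.6% of all genes tested, with TGFBR1 and SKIL higher (6.96% of all genes) and SMAD3 and TGFBR2 lower (7.68%) in lrNK cells. The number was 2 without pig 1, and the 1601 genes called over all genes fell to 1051 without pig 5. A fit blocked by pig called 7 of 9 genes against blood (19.4% of all genes tested) and 5 of 9 against liver CD8αhigh cells (15.7%). Between liver CD8αhigh and blood cells 0 of 9 were called by edgeR, against 0.064% of all genes tested (0.0457% higher and 0.0183% lower, or 0.0731% in the blocked fit, which also called 0 of 9). These shares rest on 7 genes, a number that was 0 without pig 2, 2 without pig 1 or pig 4, 3 without pig 5 and 4 with robust dispersion. It was 12 without the lrNK library of pig 3, 16 with only those populations in the fit, 18 without a filter and 25 with DESeq2. An unadjusted p under 0.05 was found for 0 of the 9 genes and for 549 of all 10939. The median log2 fold change of the 9 genes between lrNK and blood cells was -0.47, and that of all genes tested was 0.0060. In a population, fewer cells that transcribe a gene and less RNA per cell cannot be told apart, since whole sorted populations were sequenced.

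**Figure D1:**
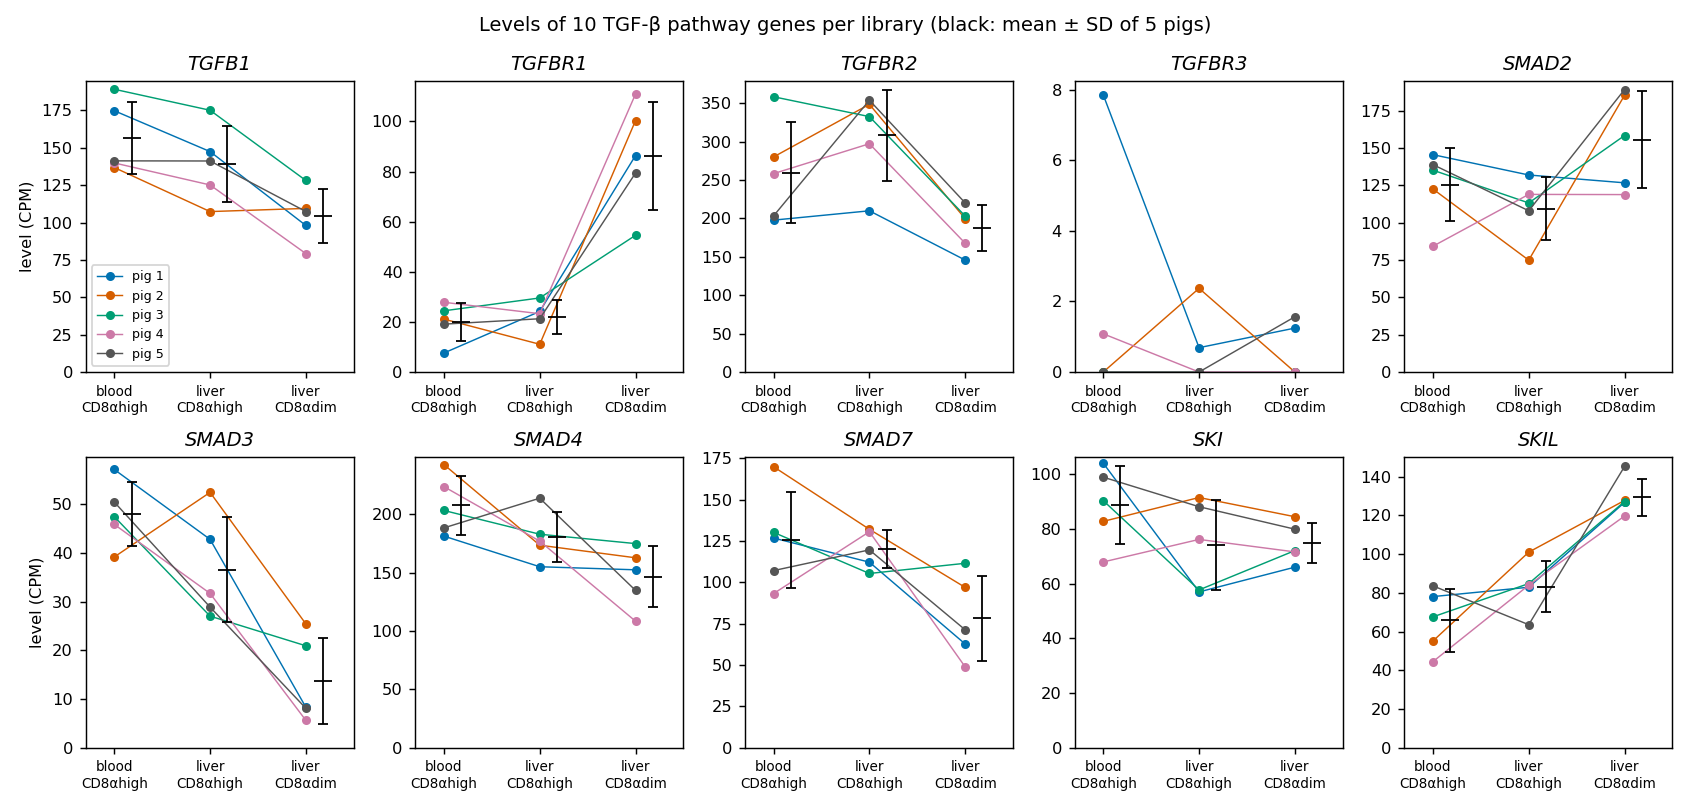
CPM of each of the 10 genes in each library (points, 5 pigs per population, lines joining the libraries of a pig, linear axes from 0), with mean and SD beside them except for TGFBR3. The 5 lrNK libraries lie above all blood and liver CD8αhigh libraries for TGFBR1 and SKIL, and below all of them for SMAD3.

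TGFB1, on chromosome 6 from 49332169 to 49348642 (Sscrofa11.1), encodes the ligand. Its level in pigs 1 to 5 was 175, 137, 189, 139.85 and 141 CPM in blood cells, 147, 107, 175, 125 and 141 CPM in liver CD8αhigh cells, and 98.0, 109, 128, 79.2 and 107 CPM in lrNK cells. All lrNK libraries thus lay below all blood libraries, while the liver CD8αhigh libraries overlapped with both. The mean was 156 ± 24.0 CPM (SD, n = 5) in blood cells, 139 ± 25.4 CPM in liver CD8αhigh cells and 104 ± 17.8 CPM in lrNK cells. TGFB1 was lower in lrNK than in blood cells in 5 of 5 pigs, with a log2 fold change of -0.58 (SE 0.17, edgeR, Benjamini-Hochberg adjusted p = 0.0215). This call was lost without pig 1, 4 or 5 (adjusted p = 0.112, 0.0701 and 0.0633, edgeR) and without the lrNK library of pig 4, which had the highest sum of B cell markers (log2 fold change -0.48, adjusted p = 0.0634). It was kept without the lrNK library of pig 2, which had the next highest sum (-0.59, edgeR adjusted p = 0.0354). Against liver CD8αhigh cells the log2 fold change was -0.42 (95% interval -0.78 to -0.056, adjusted p = 0.127, edgeR), which was not called.

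TGFBR1, the type I receptor gene, lies on chromosome 1 from 240842735 to 240918267 and overlaps with no other gene of the annotation used. It was measured at 7.59, 21.1, 24.4, 27.8 and 19.1 CPM in the blood cells of pigs 1 to 5 and at 24.2, 11.075, 29.6, 23.3 and 21.3 CPM in their liver CD8αhigh cells. In lrNK cells it reached 86.4, 100.3, 54.6, 111 and 79.4 CPM. Even the lowest lrNK library, that of pig 3, lay above the highest library of the CD8αhigh populations. The fitted level was 4.32-fold higher in lrNK than in blood cells (log2 fold change 2.11, SE 0.31, edgeR adjusted p = 4.81e-05) and 3.95-fold higher than in liver CD8αhigh cells (log2 fold change 1.98, SE 0.31, edgeR adjusted p = 1.11e-04). Within pigs, lrNK cells exceeded blood cells by 2.23-fold in pig 3 to 11.4-fold in pig 1, whose blood library had the lowest level with 28 reads. Without the lrNK library of pig 2 or pig 4, those with the highest sums of B cell markers, the log2 fold change against blood was 2.06 and 2.02 (edgeR adjusted p = 1.80e-04 and 1.94e-04). Among all genes tested, DUSP5 and LOC100513921 followed TGFBR1 most closely over the 15 libraries, with Pearson's r of log2 CPM of 0.939 and 0.925. After removing the population means these fell to 0.67 and 0.748. DUSP5 encodes a phosphatase that inactivates ERK kinases.

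TGFBR2, the type II receptor gene on chromosome 13 from 16784370 to 16875828, had another order of levels, with liver CD8αhigh cells highest. Blood cells held 198, 280.1, 358, 258 and 203 CPM and liver CD8αhigh cells 209.95, 349, 333, 297 and 354 CPM in pigs 1 to 5. The lrNK cells of the same pigs held 146, 199.7, 203, 168 and 220.2 CPM. The populations overlapped, but in each pig the lrNK library was lower than the liver CD8αhigh library, by 1.44-fold to 1.77-fold. Against liver CD8αhigh cells the log2 fold change was -0.72 (SE 0.19, edgeR adjusted p = 0.0108), a call that was lost without pig 2 or 4 (adjusted p = 0.0578 and 0.0513, edgeR). Against blood cells it was -0.47 and not called (SE 0.19, edgeR adjusted p = 0.0881), but the fit blocked by pig called it (adjusted p = 0.0382). The closest genes over the 15 libraries were LOC110261485 (r = 0.9) and YPEL2 (r = 0.867), with 0.787 and 0.716 after removing population means.

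TGFBR3, the co-receptor gene on chromosome 4 from 125109939 to 125310788, was near the limit of detection. It had reads in 2 of 5 libraries of each population, with 29 reads in the blood cells of pig 1 and at most 9 in any other library, and was not tested.

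SMAD3, on chromosome 1 from 164998457 to 165124455, and SMAD2, on the same chromosome from 97415360 to 97511388, encode the receptor-activated SMADs of this pathway. In pigs 1 to 5, SMAD3 was at 57.2, 39.2, 47.5, 45.9 and 50.5 CPM in blood cells and at 42.8, 52.5, 27.0, 31.7 and 28.9 CPM in liver CD8αhigh cells. In lrNK cells it was at 8.31, 25.4, 20.9, 5.62 and 8.10 CPM, which rests on 20 to 53 reads per library. Pigs 2 and 3 had the highest lrNK levels, and these still lay below every CD8αhigh library. SMAD3 was 3.59-fold lower in lrNK than in blood cells (log2 fold change -1.84, SE 0.35, edgeR adjusted p = 7.18e-04) and 2.73-fold lower than in liver CD8αhigh cells (log2 fold change -1.45, SE 0.35, edgeR adjusted p = 0.00653), in 5 of 5 pigs each. Without pig 1 the second of these calls was lost by a narrow margin (adjusted p = 0.0502, edgeR). Without the lrNK library of pig 2 or pig 4 the log2 fold change against blood was -2.19 and -1.62 (edgeR adjusted p = 1.43e-04 and 0.00202). The annotated span of SMAD3 shares 1450 bases with AAGAB, which was also lower in lrNK than in blood cells (log2 fold change -1.16, SE 0.30, edgeR adjusted p = 0.00903), so that reads in the shared stretch could count for either. The genes closest to SMAD3 were LOC106506477 (r = 0.945, and 0.85 after removing population means) and LOC106506809 (r = 0.935 and 0.799).

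SMAD2 ranged from 84.2 to 146 CPM in blood cells, from 74.9 to 132 CPM in liver CD8αhigh cells and from 119 to 189 CPM in lrNK cells. The populations overlapped and SMAD2 was not called, with a log2 fold change of 0.31 between lrNK and blood cells (95% interval -0.090 to 0.71, edgeR adjusted p = 0.308) and 0.51 between lrNK and liver CD8αhigh cells (95% interval 0.11 to 0.91, edgeR adjusted p = 0.0896). Without pig 4 the second of these was called (adjusted p = 0.0482, edgeR).

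SMAD4, on chromosome 1 from 100521843 to 100633501, encodes the partner shared by the receptor-activated SMADs. Its level was 181, 243, 203, 224 and 188 CPM in the blood cells of pigs 1 to 5, 155, 174, 183, 177 and 214 CPM in liver CD8αhigh cells, and 152, 163, 175, 108 and 135 CPM in lrNK cells. Every lrNK library lay below every blood library, though by little, as the highest lrNK library had 175 and the lowest blood library 181 CPM. The log2 fold change between them was -0.51 (SE 0.16, edgeR adjusted p = 0.0275). This call was lost without pig 2, 4 or 5 (adjusted p = 0.0967, 0.148 and 0.0869, edgeR) and without the lrNK library of pig 4 alone (log2 fold change -0.40, adjusted p = 0.0813), but not without that of pig 2 alone (-0.54, edgeR adjusted p = 0.0340). Between lrNK and liver CD8αhigh cells the log2 fold change was -0.30 (95% interval -0.63 to 0.024, edgeR adjusted p = 0.240). SMAD4 overlaps over 35952 bases with LOC102159046, which had 0 to 55 reads per library, and over 14737 bases with ELAC1, which had a log2 fold change of -0.50 between lrNK and blood cells and was not called (edgeR adjusted p = 0.0601). IKZF4 (r = 0.923, and 0.82 after removing population means) and VAMP2 (r = 0.888 and 0.728) followed SMAD4 most closely. IKZF4 encodes the zinc finger factor Eos and VAMP2 a SNARE protein of vesicle fusion.

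SMAD7, on chromosome 1 from 98512800 to 98543924, encodes the inhibitory SMAD of the pathway. Blood cells held 127, 169.9, 130.25, 93.2 and 107 CPM, liver CD8αhigh cells 112, 132, 105, 131 and 119.7 CPM, and lrNK cells 62.7, 97.0, 112, 48.9 and 71.3 CPM in pigs 1 to 5. The lrNK library was lower than the blood library of the same pig in 5 of 5 pigs, by 1.17-fold to 2.02-fold, although the groups overlapped through pigs 2 and 3 of the lrNK cells and pigs 4 and 5 of the blood cells. The log2 fold change was -0.69 (SE 0.21, edgeR adjusted p = 0.0267). It was no longer called without pig 1, 2, 4 or 5 (adjusted p = 0.122, 0.0821, 0.0512 and 0.0860, edgeR) or without the lrNK library of pig 4 (log2 fold change -0.54, adjusted p = 0.0764), and was called without that of pig 2 (-0.77, edgeR adjusted p = 0.0225). Against liver CD8αhigh cells the log2 fold change was -0.62 and missed the threshold (SE 0.21, edgeR adjusted p = 0.0530), whereas it was called in the fit blocked by pig (adjusted p = 0.0213) and without pig 3 (adjusted p = 0.0163). The closest genes were ITGAV (r = 0.906, and 0.805 after removing population means), the integrin chain of several receptors that release latent TGF-β, and SLC18B1 (r = 0.89 and 0.771).

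SKIL, on chromosome 13 from 109029831 to 109059176, and SKI, on chromosome 6 from 64188265 to 64242596, encode the related nuclear repressors SnoN and SKI. SKIL was at 78.0, 55.1, 67.6, 44.4 and 83.6 CPM in the blood cells and at 82.9, 101, 84.8, 83.9 and 63.5 CPM in the liver CD8αhigh cells of pigs 1 to 5. Their lrNK cells held 127, 128, 127, 119.6 and 145 CPM, a narrower spread than in the other populations (SD 9.50 CPM against 16.1 and 13.3 CPM). All 5 lrNK libraries lay above all 10 others. The log2 fold change was 0.97 against blood cells (SE 0.19, edgeR adjusted p = 6.51e-04) and 0.64 against liver CD8αhigh cells (SE 0.18, edgeR adjusted p = 0.0218), with 5 of 5 pigs higher each time. The second of these calls was lost without pig 1, 3 or 5 (adjusted p = 0.0621, 0.0502 and 0.138, edgeR). PARP14 (r = 0.942, and 0.743 after removing population means) and TOP1 (r = 0.939 and 0.843) followed SKIL most closely. PARP14 encodes an ADP-ribosyltransferase induced by interferon and TOP1 encodes DNA topoisomerase I.

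SKI was not called in any comparison, with 67.9 to 104 CPM in blood cells, 57.0 to 91.5 CPM in liver CD8αhigh cells and 66.0 to 84.5 CPM in lrNK cells. Its log2 fold change was -0.25 between lrNK and blood cells (95% interval -0.63 to 0.14, edgeR adjusted p = 0.412) and 0.013 between lrNK and liver CD8αhigh cells (95% interval -0.37 to 0.40, edgeR adjusted p = 0.981).

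**Figure D2:**
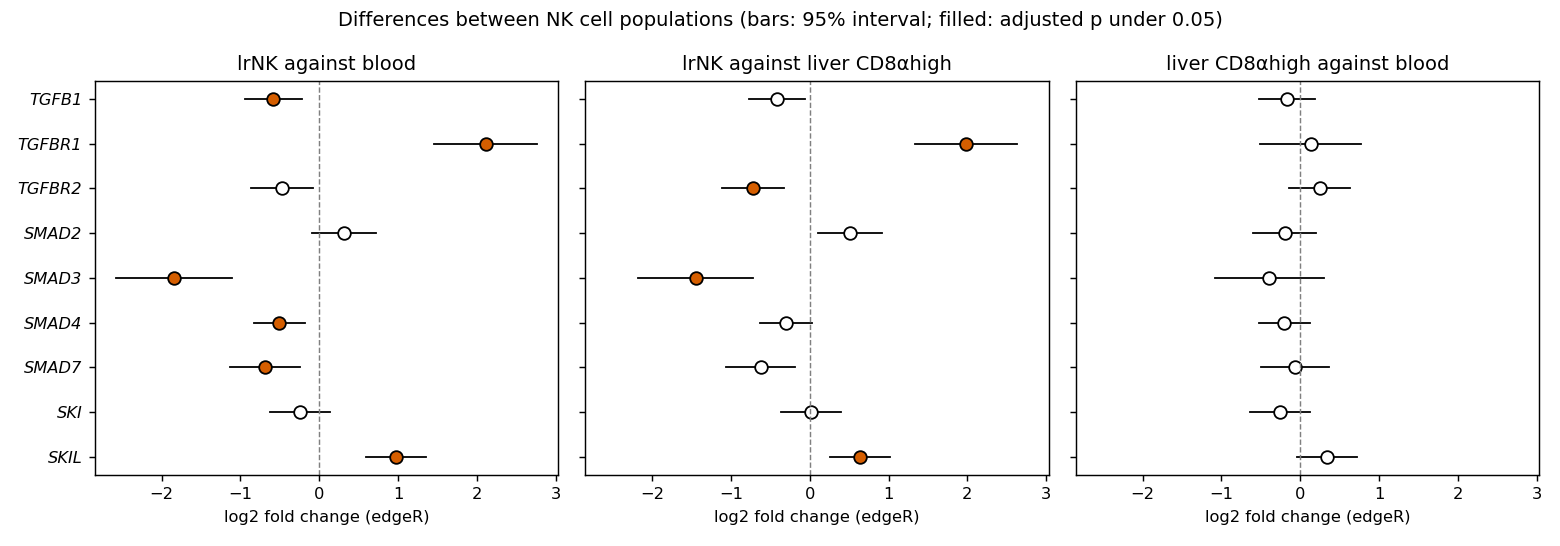
Log2 fold changes of the 9 tested genes in each comparison (edgeR), with 95% intervals and filled symbols for genes called at an adjusted p under 0.05. TGFBR1 and SMAD3 lie farthest from 0 in both comparisons of lrNK cells, at 2.11 and -1.84 against blood, and every interval of the comparison of liver CD8αhigh with blood cells includes 0.

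Liver CD8αhigh cells, which came from the same organ as the lrNK cells, were also compared with blood cells. Since no CD8αdim cells of blood were sampled, this does not separate organ from population. The 9 log2 fold changes ran from -0.39 for SMAD3 (95% interval -1.09 to 0.30) to 0.34 for SKIL (95% interval -0.044 to 0.72), and all had an edgeR adjusted p of 0.9996. For TGFBR1 the value was 0.13 (95% interval -0.51 to 0.77), beside 2.11 between lrNK and blood cells. The part of the organ in these values was not tested. DESeq2 also called 0 of the 9. Only TGFB1 pointed the same way in 5 of 5 pigs, lower in liver, with a log2 fold change of -0.17 (95% interval -0.53 to 0.19). The mean of the liver CD8αhigh cells lay between those of blood and lrNK cells for 6 of the 9 genes and outside that range for TGFBR2, SMAD2 and SKI. This was not counted over all genes tested, so the 6 of 9 has no share to be set against. In none of the 9 did the liver CD8αhigh and blood libraries separate, against 2.01% of all genes tested.

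The balance between partners was also compared inside each library, as the reads of one gene per read of the other, which does not depend on scaling. These are ratios of reads near transcript ends and are compared between libraries, not read as ratios of molecules. For each TGFBR2 read there were 0.0384 to 0.108 TGFBR1 reads in blood cells, 0.0318 to 0.115 in liver CD8αhigh cells and 0.269 to 0.662 in lrNK cells. For each SMAD2 read there were 0.320 to 0.545 SMAD3 reads in blood cells, 0.239 to 0.701 in liver CD8αhigh cells and 0.0428 to 0.137 in lrNK cells. In both of these pairs the lrNK libraries were apart from all other libraries. For each SKI read, blood cells had 0.654 to 0.845 and liver CD8αhigh cells 0.721 to 1.469 SKIL reads, while lrNK cells had 1.511 to 1.918. SMAD7 reads per SMAD4 read overlapped, with 0.417 to 0.701 in blood cells, 0.560 to 0.761 in liver CD8αhigh cells and 0.411 to 0.638 in lrNK cells. Both SMAD4 and SMAD7 were lower in lrNK than in blood cells, and their ratio did not separate these populations.

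**Figure D3:**
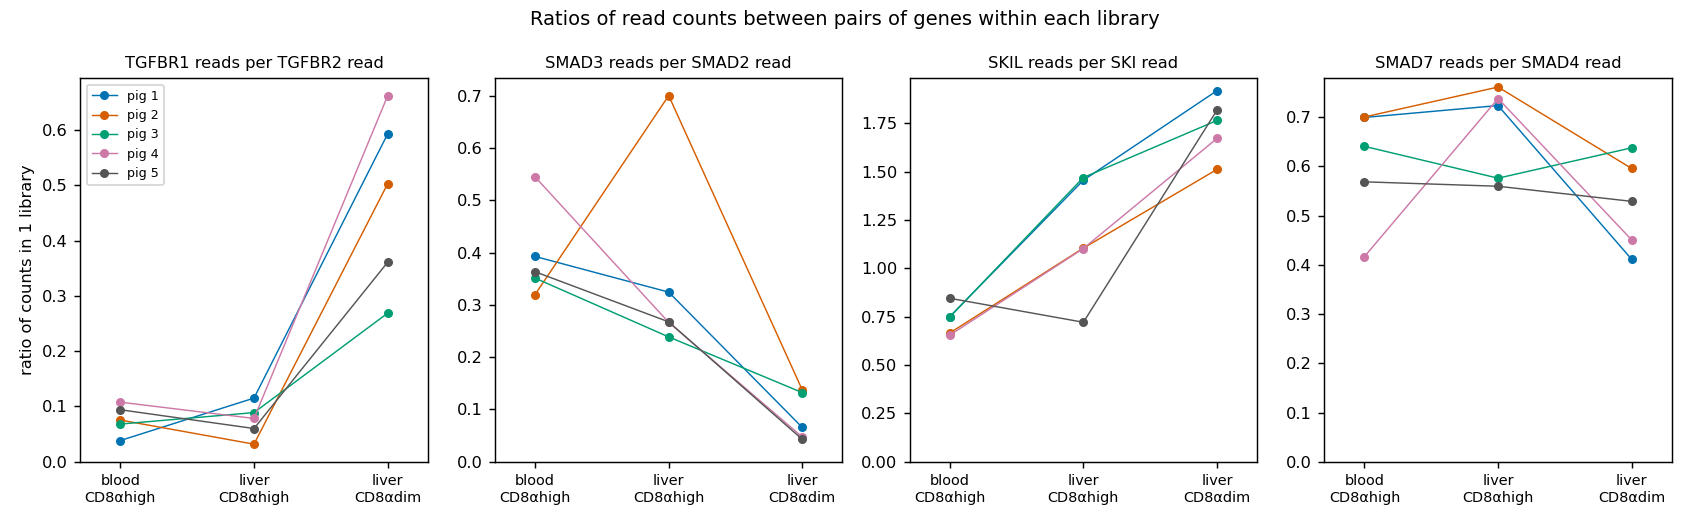
Reads of one gene per read of its partner in each library (points, 5 pigs per population, lines joining the libraries of a pig, linear axes from 0). The receptor, receptor-activated SMAD and repressor ratios of the 5 lrNK libraries lie outside the range of the other 10 libraries, and the SMAD7 to SMAD4 ratio overlaps between all populations.

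The wider pathway was described through 7 lists with 90 genes, of which 64 were tested. Between lrNK and blood cells 23 were called, 7 higher and 16 lower, which is 35.9% against 18.2% of all genes tested. They include EOMES, TBX21, ITGA1, ZEB2, S1PR5 and KLF2, which the study names in these samples. The lists were also chosen with earlier results of these data known, so the shares called in them are not independent evidence. Between lrNK and liver CD8αhigh cells 18 were called, 4 higher and 14 lower (28.1% against 14.6%), and between liver CD8αhigh and blood cells edgeR called 0 of 64, with 2 at an unadjusted p under 0.05 (549 of all 10939). Without pig 5 the 18 called genes fell to 11, as the number over all genes fell from 1601 to 1051. The median log2 fold change between lrNK and blood cells was -0.18 over the 64 genes.

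Of 14 genes for other ligands and for the activation of latent TGF-β, 5 were tested and 0 were called by edgeR between lrNK and blood cells, with 3 at an unadjusted p under 0.05 (3223 of all 10939). LRRC32, ITGB8 and MMP14, which encode a surface anchor and activators of latent TGF-β, were at 0 in all libraries, and TGFB3 was at 0 in all blood and lrNK libraries. NRROS, another anchor of latent TGF-β, had 86.0 CPM in blood cells and 49.1 CPM in lrNK cells on average (log2 fold change -0.80, SE 0.28, edgeR adjusted p = 0.0536). ITGAV had a log2 fold change of -1.31 (SE 0.56, edgeR adjusted p = 0.116). It was called in 3 of 17 alternatives, among them the fit blocked by pig (adjusted p = 0.0352) and leaving out pig 3 (log2 fold change -2.28, edgeR adjusted p = 0.00569). Its highest adjusted p was 0.343, without pig 2 (edgeR). NRROS was called in 6 of 17 alternatives, and its log2 fold change ran from -0.48 without pig 1 (edgeR adjusted p = 0.188) to -1.10 without pig 4 (edgeR adjusted p = 0.0223).

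Among 15 receptors and SMADs of related pathways, 5 were tested and 1 was called, which is 20% against 18.2% of all genes tested. SMAD6, the inhibitory SMAD of bone morphogenetic protein signalling, had 5 to 32 reads in the lrNK libraries and 0 to 5 in the blood libraries (log2 fold change 4.54, SE 1.26, edgeR adjusted p = 0.0139), a call lost without pig 5 (adjusted p = 0.0507). These few reads make its fold change imprecise. SMAD5, which encodes a receptor-activated SMAD of that branch, was not called (log2 fold change 0.58, SE 0.31, edgeR adjusted p = 0.222), and SMAD9 and BAMBI were at 0 in all libraries.

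All 13 genes for the turnover of receptors and SMADs were tested, with 1 higher and 2 lower in lrNK than in blood cells. These 3 are 23.1% of the list, near the 18.2% of all genes tested (8.62% higher and 9.6% lower). WWP1, a ubiquitin ligase for the type I receptor, was higher (45.5 ± 20.2 CPM in blood, 95.03 ± 34.0 CPM in lrNK cells, SD, n = 5, log2 fold change 1.07, edgeR adjusted p = 0.0103). SMURF2, the ubiquitin ligase that SMAD7 brings to the receptor, was lower (16.3 ± 2.09 and 5.78 ± 4.69 CPM, log2 fold change -1.48, edgeR adjusted p = 0.0498). PPM1A, a phosphatase reported to act on receptor-activated SMADs, was lower by a smaller amount (log2 fold change -0.46, edgeR adjusted p = 0.0239). None of these 3 calls held in all alternatives: WWP1 was lost without pig 5 (edgeR adjusted p = 0.111), SMURF2 in 9 of 17 alternatives, among them leaving out pig 1, 3, 4 or 5 (up to 0.162), and PPM1A in 6 of 17, among them leaving out pig 1, 2, 3 or 5 (up to 0.0972).

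Of 15 nuclear partners of the SMADs, 13 were tested, 1 was higher and 4 were lower, which is 38.5% called against 18.2% of all genes tested (8.62% higher and 9.6% lower). RUNX2 was higher in lrNK cells (84.3 ± 27.0 CPM in blood, 174 ± 52.1 CPM in lrNK cells, log2 fold change 1.04, edgeR adjusted p = 0.00196), whereas its relative RUNX3, a factor with roles in NK cell development, was lower (1557 ± 236 and 744 ± 393 CPM, log2 fold change -1.07, edgeR adjusted p = 0.00479). TGIF1, a corepressor of SMAD complexes, was lower (26.0 ± 5.88 and 6.69 ± 4.95 CPM, log2 fold change -1.93, edgeR adjusted p = 0.00571). The histone deacetylase gene HDAC1 was lower as well (158 ± 13.9 and 84.6 ± 23.2 CPM, log2 fold change -0.90, edgeR adjusted p = 8.27e-04). The fourth was the coactivator gene CREBBP, named here after its value was seen (log2 fold change -0.48, edgeR adjusted p = 0.0368), a call lost in 8 of 17 alternatives, among them leaving out pig 2, 4 or 5 (up to 0.178). In the branch through the TAK1 kinase 8 of 8 genes were tested and 1 was called (12.5% against 18.2% of all genes tested), MAP2K3, which encodes an upstream kinase of p38 (log2 fold change -0.66, edgeR adjusted p = 0.0185), which was lost in 3 of 17 alternatives, among them leaving out pig 4 or 5 (0.0854 and 0.0699). The fit blocked by pig called 2 of the 8, against 19.4% of all genes tested, adding TAB1, a partner of TAK1 (log2 fold change -0.97, adjusted p = 0.0283, against 0.0609 without the block).

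**Figure D4:**
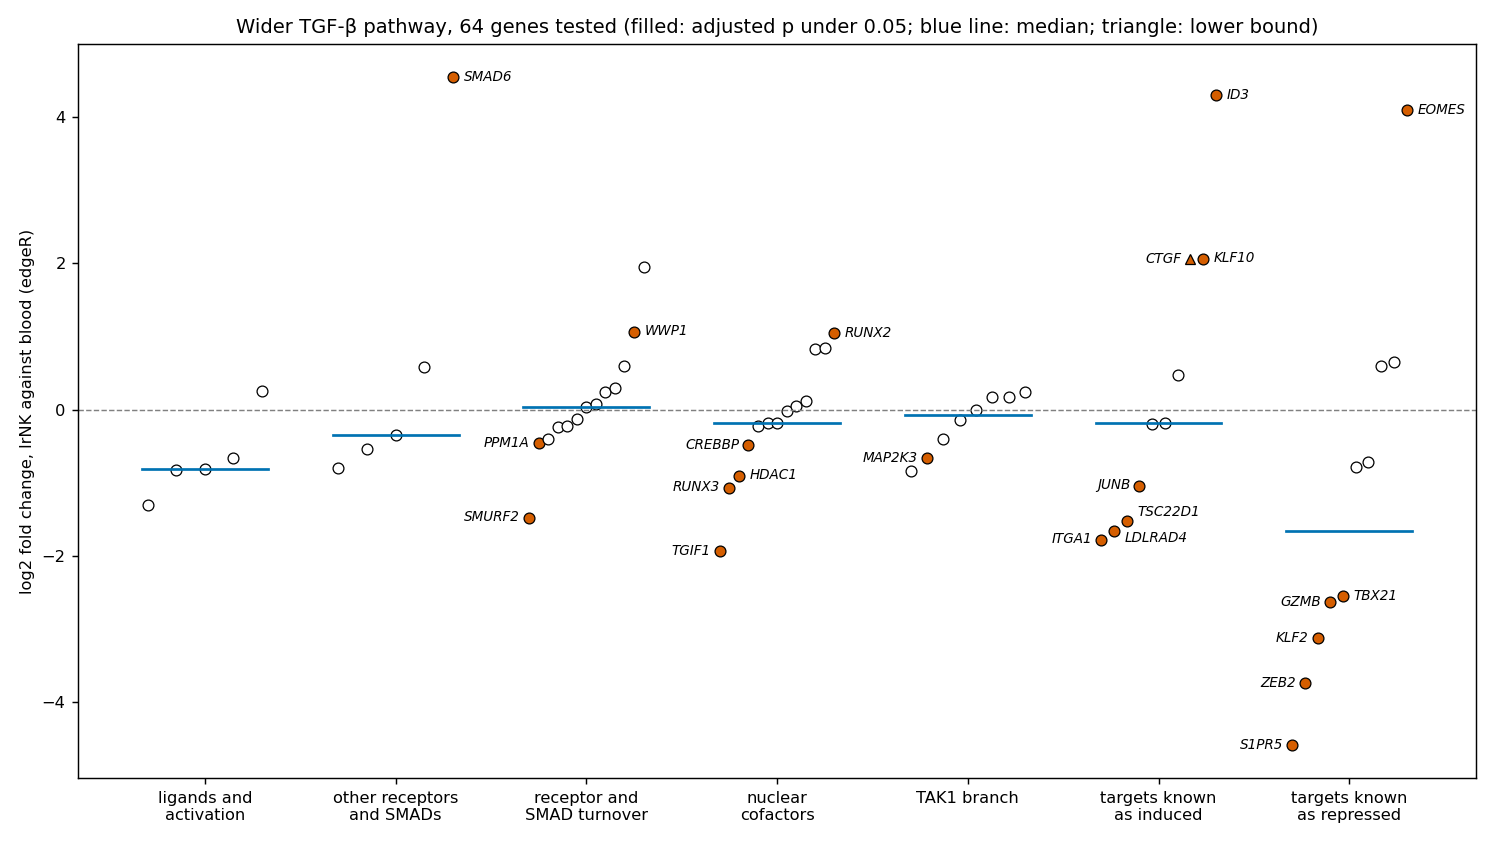
Log2 fold changes between lrNK and blood cells (edgeR) of the 64 tested genes of the 7 lists, with filled symbols and names for the 23 called genes, a line for the median of each list and a triangle where the value is a lower bound. Called genes lie on both sides of 0 in 4 lists, and the list of targets known as repressed has a median of -1.66.

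Of 15 genes known as induced by TGF-β in various cells, 10 were tested, 3 were higher and 4 were lower in lrNK than in blood cells (8.62% and 9.6% of all genes tested), with a median log2 fold change of -0.18. ID3, an inhibitor of helix-loop-helix factors, was at 3.43 ± 2.89 CPM in blood cells and at 68.7 ± 23.2 CPM in lrNK cells (log2 fold change 4.30, SE 0.72, edgeR adjusted p = 1.85e-04). KLF10, an early target, was higher (log2 fold change 2.06, SE 0.63, edgeR adjusted p = 0.0259), a call lost in the fit blocked by pig (adjusted p = 0.0547) and in 5 more of the 17 alternatives, among them leaving out pig 1, 2 or 4 (up to 0.143). CTGF had 0 reads in all blood libraries and 1 to 17 in the lrNK libraries, which makes it at least 4.18-fold higher when 3 counts per library are taken as the floor. Its call was lost without pig 2, 4 or 5 (edgeR adjusted p up to 0.0778). TSC22D1 and JUNB, both early targets, were lower (log2 fold changes -1.52 and -1.04, edgeR adjusted p = 1.28e-04 and 0.00161), as were ITGA1 and LDLRAD4. LDLRAD4, which encodes an inhibitor of SMAD activation, is named after its value was seen (log2 fold change -1.65, edgeR adjusted p = 0.00533). TGFBI was at 0 in all libraries. Of 10 genes listed as repressed by TGF-β in NK or T cells, all were tested, EOMES was higher and 5 were lower, against the same shares of all genes (ZEB2, S1PR5, TBX21, GZMB and KLF2), with a median of -1.66. The place of EOMES in this list is open, as the paper cites a report of human blood NK cells that raised the Eomes protein under liver cytokines such as TGF-β and IL-15. In the paper's own cultures neither TGF-β nor IL-10 raised it in porcine blood NK cells. GZMB and KLF2 are named after their values were seen. The study itself names EOMES, TBX21, ITGA1, ZEB2, S1PR5 and KLF2 in these samples, so their calls and direction here are not independent evidence.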

How the data were processed

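Libraries of 15 samples, which read transcripts at their 3′ end, were made with QuantSeq FWD. The authors trimmed reads with QuasR, aligned them to Sscrofa11.1 with Rhisat2 (HISAT2) and deposited raw counts for 29886 genes, without normalization. The counting tool, strand setting and rule for multiple alignments are not given in the sources used here. Each of the 15 columns was assigned to its population and donor by name. Library totals ran from 2003499 to 5680221, and low counts are imprecise accordingly. Chi-square per degree of freedom between libraries of one population was 9.82 to 51.3, so no library appeared to be a copy of another.

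Counts were tested with edgeR 4.0.16 in R 4.3.3 (TMM, filterByExpr by population, quasi-likelihood test, all libraries in one fit, Benjamini-Hochberg over 10939 genes). SE is the size of the log2 fold change divided by the square root of F. Correlations use log2 CPM with a prior count of 2. Code was tested on simulated data, and figures were drawn with matplotlib 3.10.9. Coordinates come from a RefSeq table of the same assembly, which matched 29862 genes.

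Libraries were paired by pig as the labels and the study give it. Deviations from population means correlated at 0.107 on average within pigs (15 pairs, -0.0191 to 0.193) and -0.0265 between pigs (60 pairs). A fit with the pig as a block was an alternative, besides DESeq2 1.42.0, its size factors, library totals, other filters, robust dispersion, only 2 populations, and leaving out libraries. The members and gene lists were chosen with earlier results of these data known. Named genes are the 10 members, up to 3 called genes per list and direction with the smallest adjusted p between lrNK and blood cells, any called between liver CD8αhigh and blood cells, and the 2 genes most correlated with each called member. Other genes (LDLRAD4, CREBBP, GZMB, KLF2, cell type and isolation markers, uncalled genes, genes at 0 and genes that overlap members) were named after their values were seen. Flow cytometry and culture data were not analysed here.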

Additional observations from a re-analysis of the deposited data

How the results depend on the processing

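Counts of calls and the log2 fold changes of the 9 genes were recomputed under 17 alternatives, 2 of them (leaving out the lrNK library of pig 2 or of pig 4) chosen after seeing the data. Ratios, correlations, marker sums and genes that overlap members were not recomputed. Of 459 values for the 9 genes, 419 kept direction and side of the threshold, 24 lost the call, 9 gained it and 7 turned sign. TGFBR1, SMAD3 and SKIL were called between lrNK and blood cells in 17 of 17, with adjusted p up to 0.00115, 0.0110 and 0.00734. The number of genes called there, 6, ranged from 3 to 6 when single pigs or libraries were left out, with 3 without pig 4, without pig 5 and without the lrNK library of pig 4. Between lrNK and liver CD8αhigh cells the number, 4, ranged from 2 (without pig 1) to 5, and genes of the 7 lists, 18, fell to 11 without pig 5 and reached 20 at most when libraries were left out. Library totals alone or only the 2 populations compared cost the calls of SMAD4 (adjusted p = 0.0590 and 0.0678) and SMAD7 (0.0509 and 0.0709) against blood, and the filter's removal that of SMAD4 (0.0531). SMAD7 between lrNK and liver CD8αhigh cells was called in 7 of 17. Sign changes all concerned uncalled values: SKI between lrNK and liver CD8αhigh cells (-0.0029 without a filter, -0.069 to 0.057 when libraries were left out), TGFBR1 (-0.11 to 0.32) and SMAD7 (-0.19 to 0.033) between liver CD8αhigh and blood cells. The cause was not tested. For 19 list genes printed with values between lrNK and blood cells, added after seeing the data, 271 of 318 values kept direction and side of the threshold, 38 lost the call, 9 gained it and 0 turned sign. CTGF failed the filter in 3 alternatives and SMAD6 in 2. Depth limits SMAD3, SMAD6 and CTGF in lrNK cells and TGFBR3 throughout.

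With the pig as a replicate block, 7 genes were called between lrNK and blood cells (TGFBR2 added), 5 between lrNK and liver CD8αhigh cells (SMAD7 added) and 0 between liver CD8αhigh and blood cells. The pairing gave 24, 22 and 0 called genes of the 64 tested in the 7 lists, against 19.4%, 15.7% and 0.0731% of all genes tested. It changed no other call of the 9 genes.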

Other observations

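Among the 9 tested genes, the pairs that moved most alike over the 15 libraries were SMAD3 with SMAD7 (Pearson's r of log2 CPM 0.855) and SMAD4 with SMAD7 (0.799). TGFBR1 and SMAD3 moved most in opposite directions (-0.855), followed by SMAD4 and SKIL (-0.805). Libraries of a population share their source, and population means enter these values. After removing the population means, r was 0.674 for SMAD3 with SMAD7, 0.633 for SMAD4 with SMAD7, -0.425 for TGFBR1 with SMAD3 and -0.47 for SMAD4 with SKIL. The most opposed pairs were then TGFBR1 with SKI (-0.59, from -0.428) and TGFBR1 with SKIL, which turned from 0.626 to -0.533. The 15 libraries come from 5 pigs and are not independent, so these are descriptions without a test. Of 27 groups of 5 libraries, 0 held a library beyond Dixon's critical value for any of the 9 genes.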
